A study of Mus musculus with 6 samples.

Results

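The transcription factor p53, its regulators and its known target genes were followed by RNA-seq in the epidermis of newborn mice. The members are 43 genes given by symbol, and all 43 were found among the 54532 genes of the deposited count table. They comprise Trp53, which encodes p53, its inhibitors Mdm2 and Mdm4, its relative Trp73, and targets that act in arrest, death, DNA repair and metabolism. The study asked how loss of Paxbp1, which encodes a protein that binds Pax transcription factors, affects this tissue. Of the 6 libraries, 3 carry the label Paxbp1 knockout and 3 the label wild type. All are from newborns, with dermis and fat removed and the epidermis peeled off after an overnight Dispase II digestion. The labels do not name the allele, the deleted exons or any Cre driver, nor how many animals went into a library.

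Library totals were 16643839, 17376752 and 17816327 counts in libraries labelled knockout and 16315317, 16651317 and 17802056 in libraries labelled wild type. Paxbp1 itself had 2370, 1127 and 1125 counts in the libraries labelled knockout, against 2007, 1159 and 1467 in those labelled wild type, and the groups overlapped. Its gene-level count would miss a deletion of some exons, so it does not check the genotype labels, and the groups are called by their labels throughout. Levels are CPM (counts scaled to a common library size with TMM factors), given for replicates 1 to 3 in that order, and means are ± SD over 3 libraries. Differences are log2 fold changes ± SE, knockout minus wild type, and a gene was called at an adjusted p under 0.05 over all 16471 genes tested.

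In unstressed cells Mdm2 and Mdm4 keep p53 low and inactive, Mdm2 by marking it for degradation. Damage and other stresses free p53, which then binds paired copies of a short DNA motif and switches on genes that stop the cell cycle, repair DNA, alter metabolism or start apoptosis. Mdm2 is itself a target, so it closes a feedback loop. p53 is controlled mostly as a protein, and its mRNA level is no measure of its activity. In skin, p53 is known for the response to ultraviolet light, and its relative p63 is needed for the epidermis to form.

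The p53 motif is a pair of like 10-base stretches. It was searched on both strands in RefSeq promoter windows (GRCm38.p6) that run from 250 bases before to 50 after an annotated start. Of the 43 members 35 had a window. An exact 10-base match lay in a window of 13 of these 35 genes (37.1%), against 9.55% of 27025 genes with a window. It was found in 6 of 15 members called higher, 2 of 7 called lower and 5 of 11 not called. Adjoining pairs with at most 2 mismatches in 20 bases were held by 5 of 35 members, against 0.392% of all genes with a window, and an exact pair with a spacer of up to 13 bases by 1 member, Cdkn1a, against 0.0740%. Members had 50 windows for 35 genes, against 32851 for 27025, which raises a share per gene. Per window, an exact 10-base match lay in 28.0% of member windows and 8.36% of all windows. Since most members were listed as known p53 targets, a larger share with the motif is no finding of these data. A match is a description of the letters and not a shown site. Polk, Ddit4l and Ei24, which were also called, carry a single stretch too and are not shown. The following stretches are shown because they carry adjoining pairs (first 4) or a single stretch in the promoters of Mdm2, Bax, Sesn1 and Trp53, whose levels differed between the groups. They read 5′ to 3′ on the strand of the gene, all lie before the annotated start, and capitals mark the match.
Ccng1: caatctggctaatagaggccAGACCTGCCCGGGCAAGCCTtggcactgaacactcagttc
Cdkn1a: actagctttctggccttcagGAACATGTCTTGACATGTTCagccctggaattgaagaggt
Rps27l: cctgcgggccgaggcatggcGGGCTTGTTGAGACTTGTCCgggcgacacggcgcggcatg
Trp73: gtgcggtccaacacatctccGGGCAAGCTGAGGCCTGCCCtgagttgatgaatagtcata
Mdm2: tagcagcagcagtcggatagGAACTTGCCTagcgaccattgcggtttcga
Bax: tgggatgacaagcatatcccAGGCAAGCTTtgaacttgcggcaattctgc
Sesn1: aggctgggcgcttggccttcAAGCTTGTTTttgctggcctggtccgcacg
Trp53: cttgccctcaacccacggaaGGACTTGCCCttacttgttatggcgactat

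In the deposited table (mm10) the genes themselves span chr11:69580359-69591873 for Trp53, chr10:117688875-117710758 for Mdm2, chr17:29090976-29100727 for Cdkn1a, chr11:40748552-40755311 for Ccng1 and chr7:45461697-45466898 for Bax. The stretch of Ccng1 is at chr11:40755442-40755501 (minus strand), that of Cdkn1a at chr17:29090908-29090967 (plus) and that of Rps27l at chr9:66946276-66946335 (plus), each with 1 mismatch. The Trp73 stretch has 2 mismatches, is at chr4:154097200-154097259 (minus) and belongs to a start inside the gene, as do the Rps27l and Sesn1 stretches by the coordinates in the files. The single stretches are at chr10:117710915-117710964 for Mdm2 (minus), chr7:45467070-45467119 for Bax (minus), chr10:41887246-41887295 for Sesn1 (plus) and chr11:69580264-69580313 for Trp53 (plus). Of the 4 genes with an adjoining pair shown, Ccng1 was higher, Trp73 was lower, and Cdkn1a and Rps27l were not called.

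Of the 43 members 41 passed the filter on low counts, and of these 17 were higher and 8 lower in libraries labelled knockout (edgeR adjusted p under 0.05). These are 41.5% and 19.5% of the tested members, or 61.0% together, where 28.7% of the whole transcriptome tested was higher and 25.1% lower, or 53.8% together. The median log2 fold change was 0.41 for the tested members and -0.03 for all genes tested. At least 2-fold changes were called for 13 members upward and 5 downward (31.7% and 12.2%, against 23.5% and 19.5% of all genes). The 3 libraries labelled knockout lay wholly on one side of the 3 labelled wild type for 29 tested members (70.7%), against 62.3% of all genes tested: above for 18 (31.9% of all genes) and below for 11 (30.4% of all genes). Ddit4l, which passed the filter through the libraries labelled knockout alone, is counted among the members higher, at least 2-fold higher and wholly above. The share of members that were lower depended on the scaling: upper-quartile factors gave 15 higher and 13 lower, and library size alone 15 higher and 11 lower. These scalings moved the median of all genes to -0.22 and -0.18. The calls over all 16471 genes moved as well. With upper-quartile factors 4151 were higher and 5147 lower, and with library size alone 4198 and 4715. The main fit called 4721 of them higher and 4139 lower. The number of members lower was 5 without knockout replicate 3, without wild type replicate 2 or without wild type replicate 3. Over all genes, 3739, 3560 and 3388 were lower in these fits, of 17203, 17294 and 17262 tested.

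**Figure D1:**
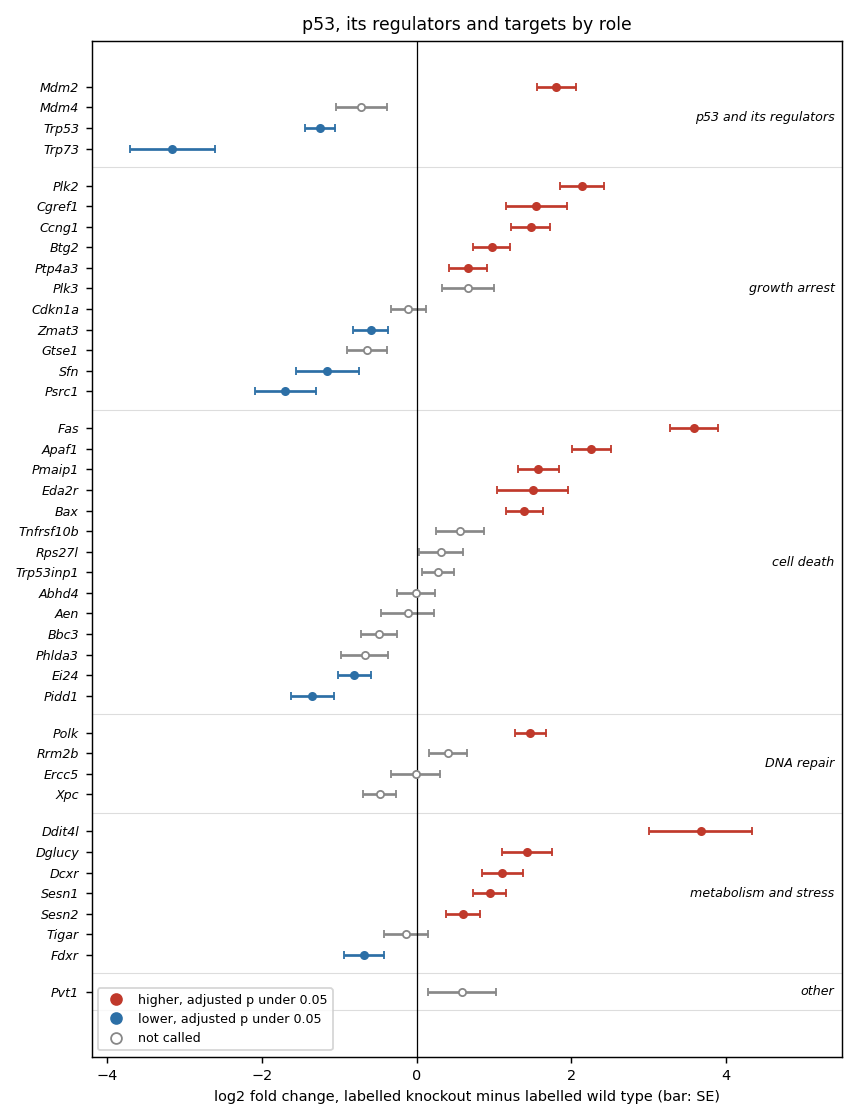
Log2 fold change of the 41 tested genes, libraries labelled knockout minus libraries labelled wild type, grouped by role, with SE as bars. Filled red points are the 17 genes called higher and filled blue points the 8 called lower. Open grey points were not called.

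Keratinocyte RNA was present in every library. Krt5, a keratin of basal keratinocytes, had 1576, 1465 and 629 CPM in libraries labelled knockout and 9134, 9834 and 10326 CPM in libraries labelled wild type, and its partner Krt14 had 2504, 2926 and 879.9 CPM in libraries labelled knockout and 4837, 5977 and 5919 CPM in libraries labelled wild type. The marker content of the libraries differed along with the genotype labels. Summed markers of basal keratinocytes ran from 1970 to 4988 CPM in libraries labelled knockout and from 19539 to 21491 CPM in those labelled wild type, and all 7 genes were lower. Suprabasal markers summed to 3219 to 7830 CPM in libraries labelled knockout and 68044 to 123814 CPM in libraries labelled wild type, with all 10 genes lower. Macrophage markers summed to 9253 to 17485 CPM in libraries labelled knockout and 160.05 to 174.5 CPM in libraries labelled wild type. Fibroblast markers summed to 3550 to 9200 CPM in libraries labelled knockout and 452 to 458 CPM in libraries labelled wild type, with Fbln1 alone lower. Neutrophil markers summed to 938 to 1754 CPM in libraries labelled knockout and 1.59 to 3.00 CPM in libraries labelled wild type, where Retnlg and Ly6g had no count. Endothelial markers summed to 182 to 353 CPM and erythroid markers to 955 to 1913 CPM in libraries labelled knockout, against at most 2.46 and 8.01 CPM in libraries labelled wild type. T cell markers summed to 99.0 to 138 CPM in libraries labelled knockout and 27.2 to 45.0 CPM in libraries labelled wild type, although single T cell genes went in both directions. Melanocyte markers summed to 139 to 277 CPM in libraries labelled knockout and 377 to 535 CPM in libraries labelled wild type. Mast cell and skeletal muscle markers stayed at or below 11.3 and 18.1 CPM in libraries labelled knockout and 1.25 and 1.20 CPM in libraries labelled wild type, and no adipocyte marker passed the filter. No count of calls is read from the scarce lists, because 5 of 6 tested neutrophil, 3 of 4 endothelial, 3 of 5 erythroid and all mast cell and muscle markers passed the filter through the libraries labelled knockout alone, and 3 of 6 T cell markers through those labelled wild type alone. The part of these cells in the member differences was not tested. In bulk tissue, fewer cells of a type and less RNA per cell cannot be told apart.

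**Figure D2:**
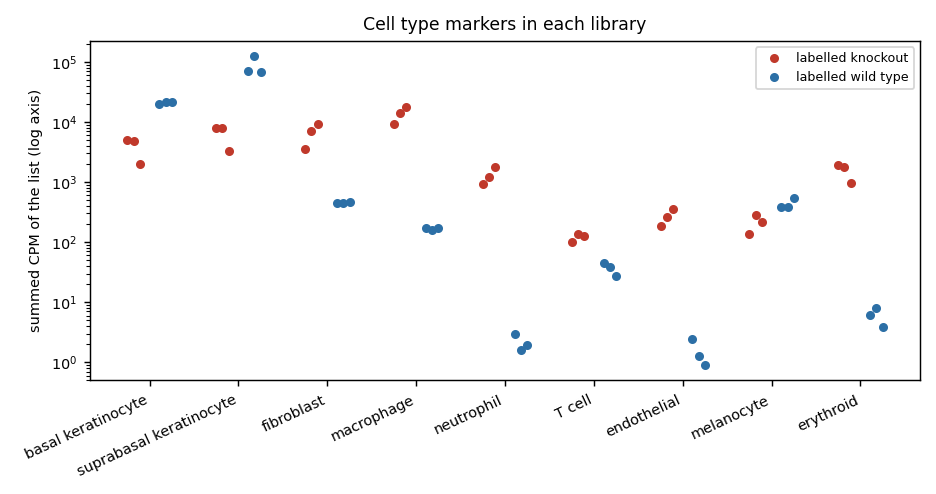
Summed CPM of marker genes of 9 cell types in each library (log axis), with libraries labelled knockout in red left of libraries labelled wild type in blue. Basal keratinocyte sums were 1970 to 4988 CPM in libraries labelled knockout and 19539 to 21491 CPM in those labelled wild type, while macrophage sums were 9253 to 17485 and 160.05 to 174.5 CPM.

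Among p53 and its regulators, mRNA of Trp53 and Trp73 was lower and mRNA of Mdm2 was higher. Trp53 had 50.5, 55.9 and 52.6 CPM in libraries labelled knockout, against 125, 118 and 135 CPM in libraries labelled wild type. The groups were far apart and each was tight, and Trp53 was 2.38-fold lower (log2 fold change -1.25 ± 0.19, edgeR adjusted p = 0.000237). Mdm2, the ubiquitin ligase that degrades p53, had 288, 169.8 and 177 CPM in libraries labelled knockout, against 66.4, 58.0 and 57.1 CPM in libraries labelled wild type. It was 3.50-fold higher (1.81 ± 0.25, edgeR adjusted p = 0.000136), and every library labelled knockout lay above every library labelled wild type. The ratio of Mdm2 to Trp53, both per gene length as FPKM, was 4.54, 2.42 and 2.68 in libraries labelled knockout and 0.423, 0.390 and 0.337 in libraries labelled wild type, so Mdm2 stood above Trp53 in every library labelled knockout and below it in every library labelled wild type.

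Mdm4, which binds p53 and masks its activation domain, had 184, 94.5 and 137 CPM in libraries labelled knockout and 335, 172 and 176 CPM in libraries labelled wild type. The groups overlapped and it was not called (-0.71 ± 0.33, edgeR adjusted p = 0.0883). It was called lower with the replicate number as a block (adjusted p = 0.00862), without knockout replicate 1 (-0.96, adjusted p = 0.0260), with upper-quartile scaling (adjusted p = 0.0406) and with no filter (adjusted p = 0.0271). The FPKM ratio of Mdm2 to Mdm4 was 4.54, 5.23 and 3.76 in libraries labelled knockout and 0.577, 0.983 and 0.944 in libraries labelled wild type. Trp73, which encodes the p53 relative p73, had 13.8, 6.86 and 1.67 CPM in libraries labelled knockout, against 69.3, 55.7 and 75.6 CPM in libraries labelled wild type. It was 8.94-fold lower (-3.16 ± 0.55, edgeR adjusted p = 0.000585). Trp63, which encodes the keratinocyte factor p63 and is the third gene of the family, fell as well, with 89.6, 59.5 and 28.7 CPM in libraries labelled knockout and 481, 460.1 and 620.3 CPM in libraries labelled wild type (-3.13 ± 0.39, edgeR adjusted p = 5.96e-05).

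**Figure D3:**
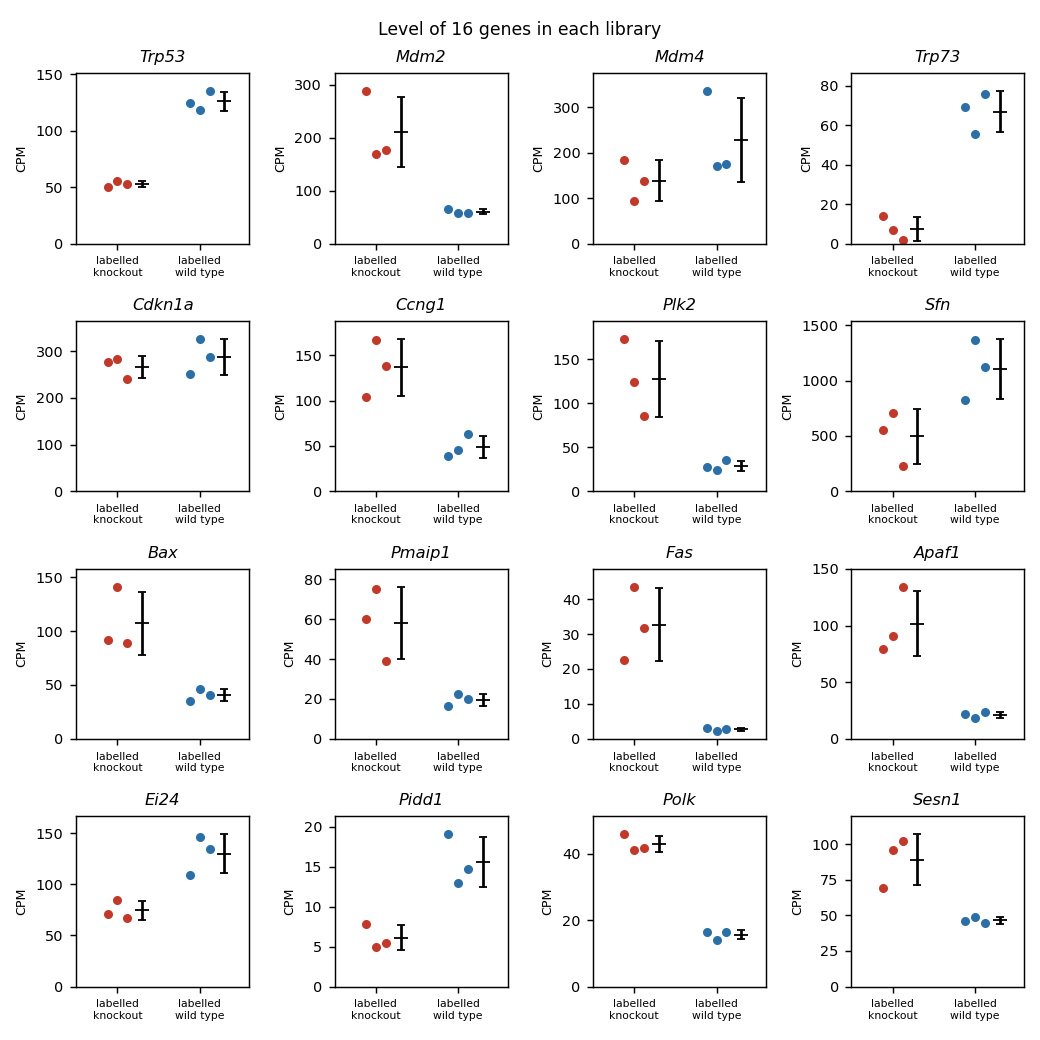
CPM of 16 genes in each library, libraries labelled knockout in red on the left and libraries labelled wild type in blue on the right, with mean and SD in black. Trp53 lies at 50.5 to 55.9 CPM in libraries labelled knockout and 118 to 135 CPM in those labelled wild type, Mdm2 at 169.8 to 288 and 57.1 to 66.4 CPM, and the Cdkn1a groups overlap.

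Of 11 arrest, growth or cell cycle members, 5 were higher and 3 lower (45.5% and 27.3%, against 28.7% and 25.1% of all genes tested). Cdkn1a, which encodes the CDK inhibitor p21 and is the best known arrest target of p53, was not among them. Its level was 277, 282 and 239.6 CPM in libraries labelled knockout and 250.01, 326 and 286 CPM in libraries labelled wild type (-0.11 ± 0.23, edgeR adjusted p = 0.707), with overlapping groups. It kept its sign in all 17 alternatives and was called in none, with log2 fold changes from -0.30 to -0.02. Plk2, a stress-induced polo-like kinase, had 173, 124 and 86.2 CPM in libraries labelled knockout, against 27.6, 24.3 and 35.0 CPM in libraries labelled wild type. It was 4.41-fold higher (2.14 ± 0.28, edgeR adjusted p = 8.66e-05). Ccng1, a cyclin that works with a phosphatase on Mdm2, had 105, 167 and 139 CPM in libraries labelled knockout and 39.4, 45.7 and 62.9 CPM in libraries labelled wild type (1.47 ± 0.26, edgeR adjusted p = 0.000595). Both rises left the groups well apart.

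Btg2, an antiproliferative gene that promotes mRNA decay, had 73.3, 118 and 105 CPM in libraries labelled knockout and 52.3, 56.8 and 42.4 CPM in libraries labelled wild type (0.97 ± 0.24, edgeR adjusted p = 0.00496). Cgref1, a regulator of cell growth with calcium-binding motifs, had 7.76, 9.47 and 5.57 CPM in libraries labelled knockout and 1.47, 3.79 and 2.55 CPM in libraries labelled wild type (1.55 ± 0.40, edgeR adjusted p = 0.00690). Ptp4a3, a phosphatase of the PRL family, had 33.6, 36.3 and 24.8 CPM in libraries labelled knockout and 18.5, 16.4 and 24.9 CPM in libraries labelled wild type (0.66 ± 0.24, edgeR adjusted p = 0.0396). Ptp4a3 is the only called member whose groups overlapped, and its call was lost in 10 of 17 alternatives. They include library-size (edgeR adjusted p = 0.127) and upper-quartile scaling (0.123), and leaving out knockout replicate 1 (0.0588) or 2 (0.104) or wild type replicate 1 (0.116) or 2 (0.156). Plk3, a relative of Plk2, was not called (0.66 ± 0.34, edgeR adjusted p = 0.122): it had 185 CPM in knockout replicate 1, but 83.2 and 90.0 CPM in the other two, against 76.2, 98.1 and 52.4 CPM in libraries labelled wild type.

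Sfn, Psrc1 and Zmat3 were lower. Sfn encodes stratifin, a checkpoint adaptor that keratinocytes make in quantity, and had 555, 711 and 225 CPM in libraries labelled knockout, against 827, 1365 and 1124 CPM in libraries labelled wild type (-1.15 ± 0.41, edgeR adjusted p = 0.0340). The groups did not overlap, but Sfn was not called without knockout replicate 3 (edgeR adjusted p = 0.0820) or wild type replicate 2 (0.105) or 3 (0.0835), nor in either limma fit of FPKM (adjusted p = 0.0505 and 0.0517). Psrc1, which encodes a spindle microtubule protein, had 17.2, 9.997 and 4.40 CPM in libraries labelled knockout and 33.6, 33.1 and 36.1 CPM in libraries labelled wild type (-1.70 ± 0.39, edgeR adjusted p = 0.00368). Zmat3, an RNA-binding zinc finger gene, had 24.9, 24.3 and 17.3 CPM in libraries labelled knockout and 28.4, 35.9 and 36.1 CPM in libraries labelled wild type (-0.60 ± 0.23, edgeR adjusted p = 0.0453). The Zmat3 call was lost in 11 of 17 alternatives: with RLE scaling (edgeR adjusted p = 0.0549), by DESeq2 (adjusted p = 0.0779), and without knockout replicate 2 (0.0525) or 3 (0.140) or wild type replicate 1 (0.0543), 2 (0.129) or 3 (0.167), among others. Gtse1, which binds microtubules and restrains p53 late in the cell cycle, had 11.7, 10.2 and 6.75 CPM in libraries labelled knockout and 14.95, 14.92 and 15.07 CPM in libraries labelled wild type. It was not called (edgeR adjusted p = 0.0553), but was with the replicate block (0.0315), with library-size (0.0437) and upper-quartile scaling (0.0210) and without knockout replicate 1 (0.0218).

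Of the 14 members that act in cell death 5 were higher and 2 lower (35.7% and 14.3%, where all genes tested gave 28.7% and 25.1%). Fas, a death receptor that leukocytes and keratinocytes both use, had 22.7, 43.5 and 31.6 CPM in libraries labelled knockout, against 3.00, 2.14 and 2.97 CPM in libraries labelled wild type. It was higher (3.58 ± 0.31, edgeR adjusted p = 3.92e-06). Apaf1, the scaffold on which cytochrome c activates caspases, had 79.6, 91.1 and 134 CPM in libraries labelled knockout and 21.8, 18.5 and 23.5 CPM in libraries labelled wild type (2.26 ± 0.25, edgeR adjusted p = 2.35e-05). Bax, which opens the outer mitochondrial membrane, had 91.6, 141 and 89.0 CPM in libraries labelled knockout and 35.6, 46.2 and 40.7 CPM in libraries labelled wild type (1.39 ± 0.24, edgeR adjusted p = 0.000560). In each of these 3 genes all libraries labelled knockout were above all libraries labelled wild type.

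Pmaip1 and Bbc3 encode Noxa and Puma, small proteins that neutralise survival proteins of the Bcl2 family, and only Pmaip1 was called; the difference between them was not tested. Pmaip1 had 59.9, 75.3 and 39.3 CPM in libraries labelled knockout, against 16.4, 22.5 and 19.8 CPM in libraries labelled wild type (1.57 ± 0.27, edgeR adjusted p = 0.000499). Bbc3 had 12.5, 14.0 and 13.1 CPM in libraries labelled knockout and 16.6, 16.2 and 22.6 CPM in libraries labelled wild type. It was not called (-0.49 ± 0.23, edgeR adjusted p = 0.0967) although the groups did not overlap, and was called lower with library-size (0.0387) and upper-quartile scaling (0.0248). Eda2r, a receptor of the ectodysplasin family, was scarce in both groups, with 5.78, 5.55 and 2.60 CPM in libraries labelled knockout and 1.69, 0.978 and 2.23 CPM in libraries labelled wild type (1.499 ± 0.46, edgeR adjusted p = 0.0172). Its call was lost without knockout replicate 2 (edgeR adjusted p = 0.0502), without wild type replicate 2 (0.0657) and without both libraries numbered 1 (0.0869).

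Ei24 and Pidd1 were lower. Ei24, which encodes a membrane protein of the endoplasmic reticulum that works in autophagy, had 71.2, 85.0 and 66.9 CPM in libraries labelled knockout, against 109, 146 and 134 CPM in libraries labelled wild type (-0.80 ± 0.21, edgeR adjusted p = 0.00759). Pidd1, the scaffold of a caspase-activating complex, had 7.87, 4.97 and 5.51 CPM in libraries labelled knockout, against 19.04, 13.02 and 14.7 CPM in libraries labelled wild type (-1.35 ± 0.28, edgeR adjusted p = 0.00191). The groups did not overlap for either gene. The other 6 members of this role were not called: the autophagy and death gene Trp53inp1 (0.28 ± 0.21), the death receptor gene Tnfrsf10b (0.56 ± 0.31), the Akt inhibitor gene Phlda3 (-0.67 ± 0.31), the nuclease gene Aen (-0.12 ± 0.34), the lipid hydrolase gene Abhd4 (-0.01 ± 0.24) and Rps27l (0.31 ± 0.28), which encodes a variant ribosomal protein and may share reads with close relatives. The groups overlapped for all of these but Trp53inp1, where they were barely apart (edgeR adjusted p = 0.278). Its lowest value in libraries labelled knockout was 82.7 CPM and its highest in libraries labelled wild type 81.4 CPM. Of all genes tested, 31.9% lay wholly above in this way. Aen had 59.9, 30.1 and 20.4 CPM in libraries labelled knockout against 37.3 to 43.6 CPM in libraries labelled wild type, and was called lower without knockout replicate 1 (-0.65, edgeR adjusted p = 0.0329). Tnfrsf10b was called higher without knockout replicate 3 (0.79, edgeR adjusted p = 0.0472), and Phlda3 was called lower without both libraries numbered 1 (-1.02, edgeR adjusted p = 0.0401), with upper-quartile scaling (0.0396) and with no filter (0.0231).

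Of the 4 DNA repair members only Polk was called, and it was higher (25%, against 28.7% of all genes tested). Polk encodes a polymerase that copies past damaged bases, and had 45.8, 41.2 and 41.9 CPM in libraries labelled knockout, against 16.3, 14.0 and 16.3 CPM in libraries labelled wild type. The rise was 2.76-fold (1.46 ± 0.20, edgeR adjusted p = 0.000108), with little spread in either group. Xpc, the damage sensor of nucleotide excision repair, had 18.4, 18.9 and 23.7 CPM in libraries labelled knockout, all below the 27.7, 25.6 and 31.6 CPM in libraries labelled wild type. It was not called (-0.48 ± 0.21, edgeR adjusted p = 0.0805), but was with the replicate block (0.0394) and with library-size (0.0292) and upper-quartile scaling (0.0169). Ercc5, a nuclease of the same pathway (-0.01 ± 0.31), and Rrm2b, the p53-inducible subunit of ribonucleotide reductase (0.41 ± 0.25), were not called. Rrm2b overlaps the pseudogene Gm3362 on the same strand, which had more counts than Rrm2b itself (21.9 CPM labelled knockout and 35.1 CPM labelled wild type, against 12.99 and 9.80 CPM for Rrm2b), so its value is uncertain.

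Of the 7 tested metabolic and stress members 5 were higher and 1 lower (71.4% and 14.3%, where all genes tested gave 28.7% and 25.1%). The 5 include Ddit4l, which passed the filter through the libraries labelled knockout alone. Sesn1 and Sesn2 encode sestrins, which restrain the growth kinase mTOR when cells are stressed or starved. Sesn1 had 69.0, 96.0 and 103 CPM in libraries labelled knockout, against 45.9, 49.1 and 44.4 CPM in libraries labelled wild type (0.94 ± 0.21, edgeR adjusted p = 0.00334). Sesn2 had 53.9, 38.0 and 38.4 CPM in libraries labelled knockout and 24.9, 30.3 and 30.7 CPM in libraries labelled wild type (0.60 ± 0.22, edgeR adjusted p = 0.0386). The Sesn2 call was lost in 8 of 17 alternatives: with library-size (edgeR adjusted p = 0.132) and upper-quartile scaling (0.139), with no filter (0.0783), without knockout replicate 1 (0.101), without wild type replicate 1 (0.147), 2 (0.0851) or 3 (0.0831), and without both libraries numbered 1 (0.264). Ddit4l, another brake on mTOR, had 3.62, 3.72 and 1.36 CPM in libraries labelled knockout and 0.327, 0.0611 and 0.265 CPM in libraries labelled wild type (3.67 ± 0.67, edgeR adjusted p = 0.000803). It passed the filter through the libraries labelled knockout alone, so a difference was built into its being tested.

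Dcxr, a reductase of sugars and dicarbonyls, had 25.2, 41.7 and 33.5 CPM in libraries labelled knockout and 11.5, 17.2 and 17.99 CPM in libraries labelled wild type (1.10 ± 0.26, edgeR adjusted p = 0.00465). Dglucy, a mitochondrial enzyme that acts on D-glutamate, had 6.80, 11.3 and 11.6 CPM in libraries labelled knockout and 2.89, 4.34 and 3.77 CPM in libraries labelled wild type (1.43 ± 0.32, edgeR adjusted p = 0.00319). The Dglucy value is uncertain, since without a stated strand setting reads of both strands cannot be told apart. Fdxr, which feeds electrons to mitochondrial P450 enzymes, had 10.6, 7.64 and 7.25 CPM in libraries labelled knockout and 14.4, 15.1 and 11.4 CPM in libraries labelled wild type (-0.68 ± 0.26, edgeR adjusted p = 0.0453). The Fdxr call was lost in 9 of 17 alternatives: with RLE scaling (edgeR adjusted p = 0.0550), under both other filters (0.0662 and 0.0559), by DESeq2 (0.0749), without knockout replicate 2 (0.109) or 3 (0.123), and without wild type replicate 1 (0.133), 2 (0.140) or 3 (0.0669). Tigar, which diverts glucose breakdown toward antioxidant supply, was not called (-0.14 ± 0.28, edgeR adjusted p = 0.703). Gdf15, a secreted stress signal, did not pass the filter, with 15, 14 and 9 counts in libraries labelled knockout and 3, 2 and 0 in libraries labelled wild type.

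The 2 remaining members were scarce. Pvt1, a long noncoding RNA gene beside Myc, had 4.02, 3.33 and 1.92 CPM in libraries labelled knockout and 1.47, 2.81 and 1.91 CPM in libraries labelled wild type (0.58 ± 0.44, edgeR adjusted p = 0.283). Ano3, a membrane protein gene, did not pass the filter, with 2, 15 and 3 counts in libraries labelled knockout and 9, 2 and 3 in libraries labelled wild type. It overlaps the mucin gene Muc15 on the other strand, which had 4.04 CPM in libraries labelled knockout and 29.3 CPM in libraries labelled wild type.

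Levels were compared between members per gene length, as deposited FPKM. Sfn was the most abundant member in both groups, at 306 ± 151 FPKM in libraries labelled knockout and 670.2 ± 172 FPKM in libraries labelled wild type (SD, n = 3 each). Next in libraries labelled knockout came Rps27l (106 ± 40.1 FPKM), Cdkn1a (74.5 ± 5.86 FPKM) and Bax (67.6 ± 18.1 FPKM), whose ranges overlapped. In libraries labelled wild type Rps27l (83.8 ± 13.2 FPKM) and Cdkn1a (79.0 ± 11.5 FPKM) again followed Sfn and did not differ from each other beyond their spread, but Bax stood at 25.3 ± 3.66 FPKM, below Phlda3 (46.4 ± 11.996 FPKM) and Trp53 (30.4 ± 1.97 FPKM). Mdm2 was at 41.3 ± 12.8 FPKM in libraries labelled knockout and 11.6 ± 0.805 FPKM in libraries labelled wild type. Cdkn1a and Rps27l, neither of them called, were thus among the most abundant of the members in both groups.

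Members also varied among the libraries labelled knockout. Replicate 3 had the lowest CPM of the 3 for 20 of 41 tested members (48.8%), against 28.8% of all genes tested, and for 6 of the 8 members called lower, Trp73, Sfn, Psrc1, Zmat3, Ei24 and Fdxr. Of all genes called lower, replicate 3 was lowest for 41.4%. For the 17 members called higher, replicates 1 and 3 were each lowest 7 times, whereas replicate 1 was lowest for 58.9% and replicate 3 for 14.9% of all genes called higher. Replicate 3 also had the lowest keratinocyte and the highest macrophage marker sums of its group (1970 and 17485 CPM, against 4988 and 9253 CPM in replicate 1). These shares are descriptions of 3 libraries.

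Of 13 tested kinases and activators that lie upstream of p53, 1 was higher, 4 were lower and 8 were not called, with a median log2 fold change of -0.65. The share higher was 7.69%, against 28.7% of all genes tested. The share lower was 30.8%, near the 25.1% of all genes tested. Trp53bp1, which marks DNA breaks, had 30.6, 17.8 and 27.0 CPM in libraries labelled knockout and 83.9, 54.3 and 73.5 CPM in libraries labelled wild type (-1.49 ± 0.26, edgeR adjusted p = 0.000629). The checkpoint kinase gene Chek2 fell to 9.63, 9.997 and 12.02 CPM in libraries labelled knockout, against 22.1, 20.3 and 22.5 CPM in libraries labelled wild type (edgeR adjusted p = 0.00205). The acetyltransferase gene Ep300 was higher (0.91 ± 0.34, edgeR adjusted p = 0.0430), but its call was lost in 9 of 17 alternatives. They include library-size (edgeR adjusted p = 0.125) and upper-quartile scaling (0.0948), and leaving out knockout replicate 3 (0.192) or wild type replicate 1 (0.0556), 2 (0.151) or 3 (0.0598). Of this list 8 were lower with the replicate block and 2 without wild type replicate 3. Over all genes, 4792 of 16471 and 3388 of 17262 were lower in these fits. Of 9 other inhibitors of p53 the fit called 2, both lower (22.2%, against 25.1% of all genes tested). Ppp1r13l, an inhibitor of p53-driven transcription, fell (-1.19 ± 0.34, edgeR adjusted p = 0.0112), as did the histone demethylase gene Kdm1a (-0.57 ± 0.19, edgeR adjusted p = 0.0276). Kdm1a was not called without knockout replicate 3 (0.0891) or without wild type replicate 1 (0.0595), 2 (0.0742) or 3 (0.118).

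A second list of p53 targets, apart from the members, gave 8 higher and 4 lower of 20 tested (40% and 20%, where all genes tested gave 28.7% and 25.1%), with a median of 0.48. Lif, counted as higher, passed the filter through the libraries labelled knockout alone, so a difference was built into its being tested. Dram1, a lysosomal protein gene of autophagy, had 42.1, 60.4 and 71.7 CPM in libraries labelled knockout, against 1.47, 1.59 and 0.849 CPM in libraries labelled wild type (5.48 ± 0.34, edgeR adjusted p = 4.16e-07). Perp, a desmosome gene that epidermis needs and that p63 also controls, had 1018, 1118 and 372 CPM in libraries labelled knockout and 2211, 3618 and 2539 CPM in libraries labelled wild type (-1.74 ± 0.43, edgeR adjusted p = 0.00584). Kitl, the Kit ligand that keratinocytes send to melanocytes, fell (-2.19 ± 0.20, edgeR adjusted p = 7.05e-06).

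Cell cycle genes listed as repressed by p53 through p21 and the DREAM complex were lower for 26 of 26. Of all genes tested 25.1% were lower. The median log2 fold change of the list was -1.58, while Cdkn1a itself was not called. Cenpf, a kinetochore gene, had 9.57, 13.9 and 15.3 CPM in libraries labelled knockout, against 82.6, 67.1 and 89.5 CPM in libraries labelled wild type (-2.63 ± 0.25, edgeR adjusted p = 7.09e-06), and Kif23, a motor of cell division, fell likewise (-2.08 ± 0.23, edgeR adjusted p = 2.02e-05). Over the alternatives 22 to 26 of these genes were lower. Marker content, given above, differed between the same libraries. Its part in these levels was not tested, nor was that of p53 or p21. Of the other CDK inhibitors, Cdkn2c (-1.83 ± 0.26, edgeR adjusted p = 0.000145) and Cdkn2b (-1.55 ± 0.41, edgeR adjusted p = 0.00830) fell and Cdkn1c rose (0.90 ± 0.30, edgeR adjusted p = 0.0237). Cdkn1c was not called with upper-quartile scaling (0.0582), nor without knockout replicate 2 (0.0544) or 3 (0.0709) or wild type replicate 1 (0.0792).

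Of 15 other Bcl2 family and caspase genes 10 were higher and 1 lower (66.7% and 6.67%, where all genes tested gave 28.7% and 25.1%), with a median of 0.98. Bcl2l11, which encodes the death activator Bim, had 73.1, 104 and 136 CPM in libraries labelled knockout and 17.7, 11.9 and 14.5 CPM in libraries labelled wild type (2.83 ± 0.28, edgeR adjusted p = 1.05e-05). The survival gene Mcl1 rose also, with 869, 1406 and 1324 CPM in libraries labelled knockout and 129, 165 and 141 CPM in libraries labelled wild type (3.05 ± 0.31, edgeR adjusted p = 1.16e-05). Bcl2, a survival gene too, fell to 7.02, 7.97 and 11.1 CPM, against 37.2, 22.6 and 34.0 CPM in libraries labelled wild type (-1.84 ± 0.28, edgeR adjusted p = 0.000218). The FPKM ratio of Bax to Bcl2 was 75.8, 103 and 46.4 in libraries labelled knockout and 5.55, 11.9 and 6.97 in libraries labelled wild type. Macrophage and neutrophil markers, given above, were higher in the same libraries, and their part in these levels was not tested.

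**Figure D4:**
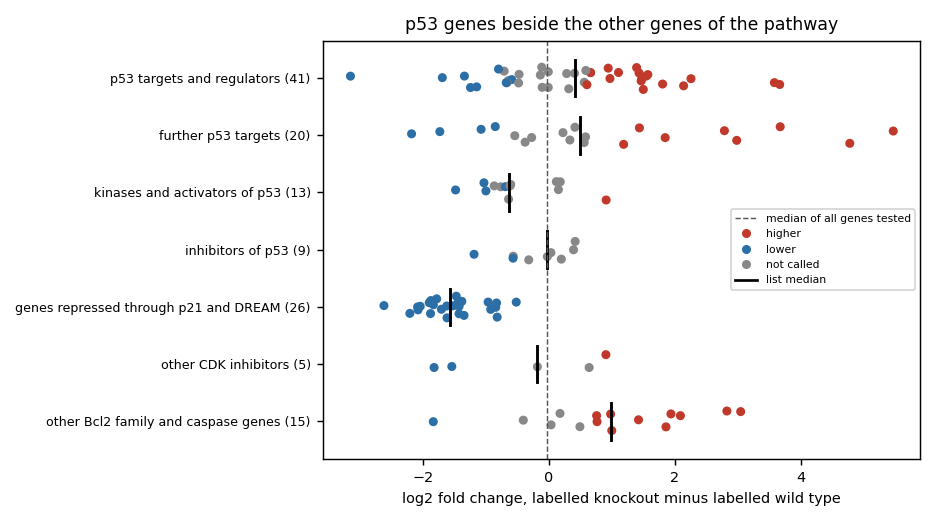
Log2 fold change of each tested gene, libraries labelled knockout minus libraries labelled wild type, for the p53 members and for other lists of the pathway, with the number of genes in brackets. Black lines are list medians (0.41 for the members, -1.58 for genes repressed through p21 and DREAM, 0.98 for other Bcl2 family and caspase genes), and the dashed line is the median of all genes tested (-0.03).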

How the data were processed

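Per the submitters' processing notes, reads were processed with HISAT2 2.0.5, featureCounts 1.5.0-p3 and mouse build mm10. Neither their settings (strand among them) nor the annotation's release number is known: not given in the sources used here. Deposited by the authors were whole-number counts per gene and FPKM values for the same 6 libraries. In each library the deposited FPKM equals count over gene length and total, times a constant of 0.854 to 1.12.

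Counts were tested with edgeR 4.0.16 in R 4.3.3 (TMM factors, expression filter with minimum count 10 and minimum total 15, robust quasi-likelihood fit, genotype as the only term). P-values were Benjamini-Hochberg adjusted over 16471 genes, and the genes kept make up 99.7% or more of each library. Each SE was obtained by dividing the size of the log2 fold change by the root of its F statistic. The labels do not say whether libraries came from separate animals, and the p-values only set group differences against the spread among these libraries, which may be technical. Libraries of a group differed beyond sampling noise (chi-square of 34.0 to 93.6 per degree of freedom) and were kept as 3 separate samples. The number in the titles may pair libraries across groups. Across genes, a library's deviation from its group mean correlated with that of its namesake at 0.23, 0.34 and 0.18. Libraries of unlike number gave correlations from -0.32 to 0.07. The main fit leaves this pairing out, and the replicate block takes it in. No label says what a number marks, so the pairing comes from the data.

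The 17 alternatives were RLE, library-size and upper-quartile scaling, no filter, a filter of 1 CPM in 3 libraries, DESeq2 1.42.0, limma-voom, limma-trend (limma 3.58.1) on log2 FPKM with a pseudocount of 1 or 0.1, a replicate block, each library left out, and both libraries numbered 1 left out. The members, gene lists and alternatives were chosen with earlier results of these data known. Named were every member and, from each other list, Trp63 and the 2 genes with the smallest adjusted p in each direction. Some genes under this rule are not reported here. The rule for markers was the most abundant gene of a list; Krt5, Krt14, Fbln1, Retnlg and Ly6g were chosen after their values were seen. Coordinates of 41 of 43 members equal those of GENCODE M21. Promoter sequences are from RefSeq (GRCm38.p6); 8 members had no window: Pmaip1, Ptp4a3, Pvt1, Rrm2b, Tnfrsf10b, Trp53inp1, Xpc and Zmat3.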

Additional observations from a re-analysis of the deposited data

How the results depend on the processing

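Over 17 alternatives, the log2 fold changes of the 41 tested members kept their side of the threshold in 630 of 697 cases, lost a call in 46, gained one in 21, and no called change reversed. The same call stood in every alternative for 14 of the 17 members called higher and 5 of the 8 called lower. The members higher numbered 14 to 19 over these alternatives (15 to 19 with 1 library left out), and 17 with the replicate block. The number lower was 13 with upper-quartile scaling, and 5 to 11 with 1 library left out. With the replicate block 11 members were lower, since Mdm4, Gtse1 and Xpc were then called, and no other member call changed. Over all genes 4313 to 5017 were higher and 3388 to 4458 lower with 1 library left out. Of all 16471 genes, upper-quartile scaling gave 4151 higher and 5147 lower, and the replicate block 5089 and 4792. The main fit gave 4721 and 4139. The cause of these shifts was not tested. Fits that leave out a library rest on 2 libraries in a group. Gdf15 and Ano3 had too few counts to be tested, and low counts limit Eda2r, Ddit4l and Pvt1.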
